A study of Mus musculus with 20 samples.

Results

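RANKL together with the bromodomain inhibitor I-BET was compared with no treatment in RAW264.7 cells, a mouse macrophage line, by the histone H3 lysine 27 acetylation (H3K27ac) peak lists of 6 of the 20 samples. The 6 lists were taken by treatment: 3 of cells given RANKL (50 ng/ml) and I-BET (500 nM) for 4 h, and 3 of untreated cells. The 20 samples comprise 10 immunoprecipitated libraries with a peak list each and 10 input libraries that were not analysed here. The lists of 3 RANKL libraries (50 ng/ml, 4 h) and 1 I-BET library (500 nM, 4 h, numbered replicate 3) were read beside the 6. All lists come from the same single cell line, and nothing in the labels says that replicates were separate cultures. The p-values therefore speak only of how these samples vary, and part or all of that variation may be technical. Sequencing depth is unknown, as the lists carry no read counts.

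RANKL is the cytokine that commits monocytic precursors to osteoclasts, the cells that resorb bone. It binds its receptor RANK, acts through TRAF adaptors on NF-kB and AP-1, and these induce the transcription factor NFATc1. H3K27ac marks active promoters and enhancers, where BET proteins such as BRD2 bind acetylated histones through their bromodomains and recruit the elongation machinery. Acetyl transferases such as p300 write the mark, and a BET inhibitor displaces its readers.

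Consensus regions were stretches of the GRCm38 genome that peaks of 2 or more of the 6 lists covered, and a list held a region that its peaks overlapped by 1 bp or more. There were 16703 such regions. Because replicate 2 of RANKL+I-BET is a short list, gained regions were those that RANKL+I-BET replicates 1 and 3 held and untreated replicates 1 and 3 did not, and lost regions were the reverse. RANKL-type gained regions were those gained regions that RANKL replicates 1 and 3 also held, which is acetylation of the kind seen with RANKL and present while BET proteins were inhibited.

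Gained regions numbered 645, which is 3.86% of all regions, and lost regions numbered 184, or 1.1%. RANKL-type gained regions numbered 346, or 2.07%. Another 299 gained regions lacked a peak in 1 or both of RANKL replicates 1 and 3. The nuclear receptor gene Ppard, the superoxide dismutase gene Sod2, the interleukin-1 antagonist gene Il1rn and Nfatc1 itself were among the nearest genes of RANKL-type regions. When the 4 lists were reduced to their strongest peaks at 1 covered length (16.1 Mb), gained regions numbered 502 and lost regions 1038, so the balance turned. RANKL replicates 1 and 3, of 23.7 and 25.9 Mb as deposited, were reduced to that length too, and RANKL-type regions numbered 133. That setting also removes weak peaks and leaves 15060 consensus regions, and which of these moved the counts was not tested. Leaving a list out removes a condition of the rule, so counts can then only rise. Leaving out untreated replicate 1 or untreated replicate 3 gave 1340 or 2645 gained regions, of which 874 or 2179 were RANKL-type, and leaving out RANKL+I-BET replicate 1 gave 719 lost regions.

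Sequence was at hand for promoter windows, 250 bases before to 50 bases after a gene's start (RefSeq, GRCm38.p6). Of the 346 RANKL-type regions, 53 lay over such a window of a protein-coding gene. The windows of 6 genes are shown: Ppard and Cdk2ap2 have the strongest of these regions, Il1rn and Isg20 belong to the inflammatory and interferon gene lists, and Nod2 and Zfp850 were chosen after their values were seen, as 2 of the 3 genes with an NF-kB motif under a region that covers the whole window. Capitals mark that motif, GGGNNTTCC on either strand, and windows without capitals hold none of the 6 motifs searched.
Ppard, chr17:28232504-28232803, plus strand: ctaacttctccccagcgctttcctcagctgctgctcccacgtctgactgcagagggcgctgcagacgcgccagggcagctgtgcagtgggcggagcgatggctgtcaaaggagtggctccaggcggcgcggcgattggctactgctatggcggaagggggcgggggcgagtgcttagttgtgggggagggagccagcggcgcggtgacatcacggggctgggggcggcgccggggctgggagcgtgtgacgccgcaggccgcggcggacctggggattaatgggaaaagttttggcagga
Cdk2ap2, chr19:4097101-4097400, plus strand: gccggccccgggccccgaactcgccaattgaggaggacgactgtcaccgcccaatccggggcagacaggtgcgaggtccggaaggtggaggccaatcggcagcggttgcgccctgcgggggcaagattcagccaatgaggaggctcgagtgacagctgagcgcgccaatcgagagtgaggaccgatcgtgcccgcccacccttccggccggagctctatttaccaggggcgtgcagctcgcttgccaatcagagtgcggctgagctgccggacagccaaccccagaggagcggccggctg
Il1rn, chr2:24345121-24345420, plus strand: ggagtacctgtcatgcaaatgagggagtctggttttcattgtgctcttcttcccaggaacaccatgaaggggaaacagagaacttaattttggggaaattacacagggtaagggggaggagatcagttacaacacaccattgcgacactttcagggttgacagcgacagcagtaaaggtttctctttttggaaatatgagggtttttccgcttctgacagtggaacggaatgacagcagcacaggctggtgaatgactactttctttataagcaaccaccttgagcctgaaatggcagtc
Isg20, chr7:78913985-78914284, plus strand: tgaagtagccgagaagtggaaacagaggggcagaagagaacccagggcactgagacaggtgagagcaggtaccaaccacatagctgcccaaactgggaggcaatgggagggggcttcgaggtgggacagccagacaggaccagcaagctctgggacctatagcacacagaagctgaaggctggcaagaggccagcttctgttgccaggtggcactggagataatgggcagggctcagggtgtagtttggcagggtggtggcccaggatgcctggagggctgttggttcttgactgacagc
Nod2, chr8:88647097-88647396, plus strand: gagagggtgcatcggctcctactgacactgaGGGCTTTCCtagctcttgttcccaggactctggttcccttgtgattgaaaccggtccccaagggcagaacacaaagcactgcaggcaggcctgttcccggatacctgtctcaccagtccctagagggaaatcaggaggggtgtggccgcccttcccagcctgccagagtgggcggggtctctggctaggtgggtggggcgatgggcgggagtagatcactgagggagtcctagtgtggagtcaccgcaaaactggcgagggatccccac
Zfp850, chr7:28014066-28014365, minus strand: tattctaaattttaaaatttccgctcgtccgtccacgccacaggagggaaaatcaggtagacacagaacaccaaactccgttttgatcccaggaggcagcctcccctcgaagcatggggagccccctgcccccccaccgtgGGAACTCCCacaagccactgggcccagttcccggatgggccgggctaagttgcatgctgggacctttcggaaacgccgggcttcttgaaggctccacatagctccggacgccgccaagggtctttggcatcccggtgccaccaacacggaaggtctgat

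The gained regions covered 300 bases of the Cdk2ap2, Nod2 and Zfp850 windows, 140 of the Isg20 window, 26 of the Il1rn window and 12 of the Ppard window. The Ppard and Il1rn regions thus lie wholly downstream of the start shown, and the printed bases before that start are not under them. In Nod2, which encodes a sensor of bacterial peptidoglycan, the NF-kB motif runs from base 32 to 40 of the window on the strand printed. In Zfp850, a zinc finger gene, it runs from base 142 to 150 on the opposite strand. The NF-kB motif was found in 8 of the 53 windows (15.1%), in 353 of 4289 windows under regions that all 4 lists held (8.23%) and in 1546 of all 27025 windows (5.72%). In the Glcci1, Zfp709 and Gm15246 windows, which are among the 8, the motif lay outside the stretch that the gained region covered. With 2 of 15 windows under the other gained regions and 1 of 6 under lost regions, the last sets are too small to compare. The 8 windows are few as well, the motif is 1 of 6 searched, and no test was made of these shares.

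The remaining motifs were spelled TGANTCA (AP-1), TGACGTCA (cAMP response element), CACGTG (E-box), GAGGAAG (ETS) and GAAANNGAA (interferon element), and were searched on both strands. AP-1 was in 2 of the 53 windows (3.77%), against 4.62% of windows under regions that all 4 lists held and 7.93% of all windows. The E-box was in 4 (7.55%, against 11.6% and 7.24%) and the ETS motif in 7 (13.2%, against 14.6% and 13.5%). The interferon element was in 3 (5.66%, against 7.37% and 8.57%) and the cAMP response element in 1 (1.89%, against 4.15% and 1.88%). These are matches of letters, not sites of binding.

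RANKL+I-BET replicates 1, 2 and 3 held 17643, 6041 and 13613 peaks over 23.0, 3.44 and 20.6 Mb. Untreated replicates 1, 2 and 3 held 16364, 9893 and 13677 peaks over 16.1, 7.79 and 19.5 Mb. In replicates 1 and 3 the mean peak number was 15628 ± 2850 with RANKL+I-BET and 15020.5 ± 1900 without (SD, n = 2 each; two-sided exact permutation p = 1). Covered length averaged 21.8 ± 1.69 Mb against 17.8 ± 2.44 Mb (SD, n = 2 each; exact p = 0.333, the smallest that 2 against 2 lists can give). Both RANKL+I-BET lists of replicates 1 and 3 were longer than both untreated ones. Over all 3 replicates the RANKL+I-BET minus untreated differences were -879 peaks (n = 3 each; exact permutation p = 0.9) and 1.20 Mb (exact p = 0.8), where 3 against 3 lists cannot go below 0.1.

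The lists also differed in the strength of their peaks. Peaks with a -log10 q under 2 made up 57.7%, 61.8% and 20.9% of untreated replicates 1, 2 and 3, and 16.6%, 0% and 20.6% of RANKL+I-BET replicates 1, 2 and 3. Untreated replicates 1 and 2 were thus the lists with most weak peaks, and the short RANKL+I-BET list held none. Their part in the gained and lost counts was not tested. Within same-numbered pairs, 3495 regions were held with RANKL+I-BET alone and 551 untreated alone in pair 1, 838 and 4145 in pair 2, and 1595 and 1332 in pair 3. Pair 3 had the smallest imbalance and pair 2 the opposite one, and the part of list length in this was not tested. Markers of lymphocytes had a gene-end peak (within 1 kb of either end of the gene) for 1 to 2 of 14 genes in the 4 lists of the main comparison, and markers of fibroblasts and osteoblasts and of tissues absent from the culture for 0 of 14 and 0 of 18. Of the macrophage genes, 19 to 24 of 30 had one in those lists. RANKL replicate 2, read beside them, covered 185 Mb and had one for 29 of 30 macrophage genes. It also had one for 12 of 14 lymphocyte, 8 of 14 fibroblast and osteoblast and 14 of 18 absent-tissue markers. A peak in that list alone therefore says little.

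**Figure D1:**
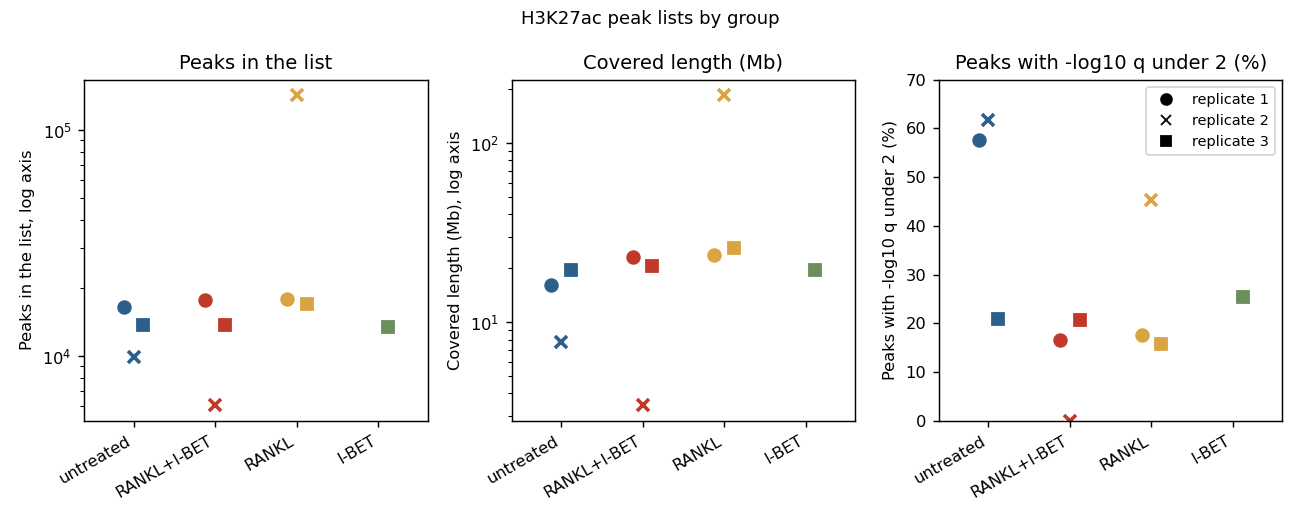
Peaks per list (log axis), covered length in Mb (log axis) and the percentage of peaks with -log10 q under 2, one point per list, by group, with symbols for the replicate. RANKL+I-BET replicate 2 is the shortest list (6041 peaks) and RANKL replicate 2 the longest (141905 peaks), and untreated replicates 1 and 2 have the largest share of weak peaks (57.7% and 61.8%).

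Gained and lost regions were both small and mostly away from gene ends. Consensus regions are stretches where peaks of the lists overlap, so regions that more lists held can be wider by construction. The rule alone can thus make regions that all 4 lists held wider than gained or lost ones. Wider regions can also reach a gene end more often. The part of the rule in the widths and gene-end shares below was not tested. The median width of gained regions was 370 bp, against 1506 bp for the 9714 regions that all 4 lists held and 208 bp for lost regions. Within 1 kb of a gene end lay 161 of the 645 (24.96%), against 46.9% of all regions and 20.7% of lost ones. A further 316 (49.0%) lay inside genes, against 32.7% of all regions and 52.7% of lost ones. Between genes lay 168 (26.0%), against 20.4% of all regions and 26.6% of lost ones. RANKL-type regions were at a gene end in 112 cases (32.4%) and other gained regions in 49 (16.4%). The nearest region held by all 4 lists was a median of 17594 bp from a gained region and 10287 bp from a lost one, and 166 gained regions (25.7%) and 74 lost regions (40.2%) lay within 5 kb of one.

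Peak strength in the lists that chose the gained regions is a description, with no test. The median fold enrichment over the caller's background, the authors' value, was 3.44 at gained regions in RANKL+I-BET replicate 1 and 2.45 in replicate 3. Regions that all 4 lists held had medians of 3.54 and 2.51 there. A -log10 q of at least 5 was reached by 184 gained regions (28.5%) in replicate 1 and by 166 (25.7%) in replicate 3. Of the 184 lost regions, 7 (3.80%) reached it in untreated replicate 1 and 37 (20.1%) in untreated replicate 3. Over all regions that a list held, the shares were 28.4% and 22.9% in RANKL+I-BET replicates 1 and 3. They were 4.18% and 20.5% in untreated replicates 1 and 3, so gained and lost shares lay near those of their own lists. Just outside the rule were 2695 regions that both RANKL+I-BET lists and 1 of the untreated lists held, 695 by untreated replicate 1 and 2000 by replicate 3. The weaker of the RANKL+I-BET peaks there had a median -log10 p of 3.52, against 3.39 at gained regions (1.53 to 18.6) and 3.89 at regions that all 4 lists held. The single untreated peak at those 2695 regions had a median of 3.91.

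Lists that the rule did not use were then read at the same regions. RANKL replicates 1, 2 and 3 held 448 (69.5%), 501 (77.7%) and 462 (71.6%) of the 645 gained regions. Both RANKL replicates 1 and 3 held 346 (53.6%), 1 of them held 218, and neither held 81 (12.6%). This share lies below that of all consensus regions, of which those 2 RANKL lists both held 13972 (83.6%), and above that of lost regions, of which they both held 72 (39.1%). The RANKL lists share no library with the 6, but RANKL against untreated would share the untreated lists, so only presence is given here.

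The I-BET list held 281 gained regions (43.6%), 176 of the 346 RANKL-type regions (50.9%) and 105 of the 299 others (35.1%), against 76.5% of all regions and 63 lost regions (34.2%). RANKL+I-BET replicate 2 held 39 gained regions (6.05%) and 0 lost regions, against 32.0% of all regions. Untreated replicate 2 held 78 gained (12.1%) and 11 lost regions, against 51.8% of all regions. Of the 346 RANKL-type regions, RANKL+I-BET replicate 2 held 24 (6.94%) and untreated replicate 2 held 57 (16.5%). The gained pattern was therefore repeated in the pair numbered 2 at few regions: 27 regions were held by all 3 RANKL+I-BET lists and no untreated list, and 11 had the reverse pattern. Of the 27, RANKL replicates 1 and 3 both held 15 and the I-BET list held 11.

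**Figure D2:**
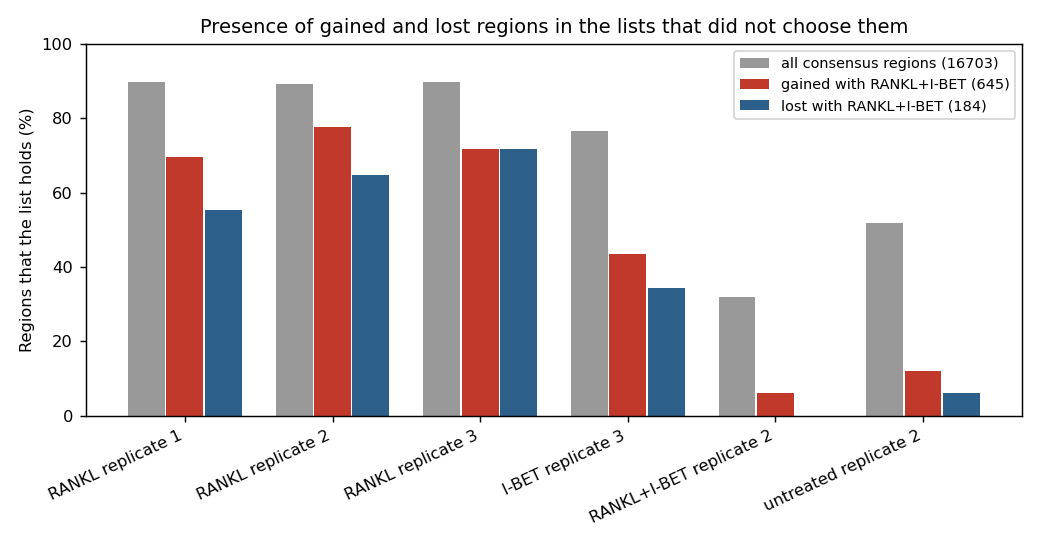
Percentage of all 16703 consensus regions, of the 645 gained and of the 184 lost regions that each list outside the rule holds, as bars from 0. Each RANKL list holds 69.5% to 77.7% of gained regions, the I-BET list 43.6% and untreated replicate 2 12.1%, all under the shares of all regions in the same lists.

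The strongest RANKL-type regions were named by the weaker of their RANKL+I-BET peaks. Folds of different lists are not on one scale, since the median over all peaks was 3.47 in RANKL+I-BET replicate 1 and 2.50 in replicate 3, so they show presence and rank within a list. The Ppard region, beside the start of a nuclear receptor for fatty acids (chr17:28232792-28233406), had folds of 5.27, 4.78 and 7.25 in RANKL+I-BET replicates 1, 2 and 3 and 2.11, 5.62 and 2.05 in the RANKL lists. It had no peak in any untreated list or in the I-BET list, and it is the only one of the 20 strongest gained regions held by 3 RANKL+I-BET and 0 untreated lists. At Cdk2ap2, which encodes a CDK2-associated protein (chr19:4096888-4097567), the folds were 5.66, 4.96 and 4.11 with RANKL+I-BET, 4.53, 2.51 and 3.95 with RANKL, 3.08 with I-BET and 2.56 in untreated replicate 2. That untreated list is the one set apart by the rule.

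At Sod2, the mitochondrial superoxide dismutase (chr17:13008072-13008489, 233 bp from a gene end), RANKL+I-BET replicates 1 and 3 had folds of 5.02 and 4.93, the RANKL lists 7.11, 1.48 and 2.63, and the I-BET list 1.77. The 3 untreated lists had no peak there. Chchd7, which encodes a mitochondrial protein (chr4:3938988-3939266), had 6.24 and 4.47 with RANKL+I-BET and 6.32, 1.83 and 5.12 with RANKL, and 2.73 in untreated replicate 2. Tnrc6c, a factor of microRNA silencing (chr11:117724818-117725071), had 10.7 and 3.26 with RANKL+I-BET, 3.05, 1.81 and 2.91 with RANKL, and no peak with I-BET or without treatment. Chchd7, Ppard and Tnrc6c were among the 4 of the 12 strongest RANKL-type regions without a peak in the I-BET list.

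The other 8 of the 12 had an I-BET peak. At Gtdc1 (chr2:44923301-44923981) it had a fold of 5.61, and RANKL+I-BET replicates 1 and 3 had 4.90 and 3.85. They also included Akap13, which encodes an anchor of protein kinase A, with 5.03 and 3.87 under RANKL+I-BET and 3.20 with I-BET. Zfp652, a zinc finger gene, had 5.97 and 3.82 against 3.75, and Cdc42ep3, an effector of Cdc42 whose end lay 33275 bp away, had 6.28 and 3.63 against 2.41. Trmt12, a tRNA-modifying enzyme, had 6.62 and 3.76 against 1.32, and Cd101, a surface protein, had 4.86 and 3.40 against 1.87.

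Among gained regions that 1 or both RANKL lists lacked, the strongest lay in Gm9949, with 10.9 and 5.35 in RANKL+I-BET replicates 1 and 3 and 4.99 and 1.48 in RANKL replicates 1 and 2. Rab5c, a GTPase of early endosomes, had 8.63 and 4.54 with RANKL+I-BET, 2.03 and 5.15 in RANKL replicates 1 and 2 and 3.22 with I-BET. The region 7384 bp from Hhex, a homeobox gene, had 6.79 and 3.99 and a peak of 2.56 in RANKL replicate 1, and that in Itgb2, the leukocyte integrin beta chain, had 6.53 and 3.83, with 5.75 and 3.64 in RANKL replicates 1 and 2. Slc30a1, a zinc exporter, and Actr3, a subunit of the actin-nucleating Arp2/3 complex, were the nearest genes of 2 more, at 5.87 and 5.69 and at 4.90 and 4.02. None of these 8 had a peak in any untreated list.

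**Figure D3:**
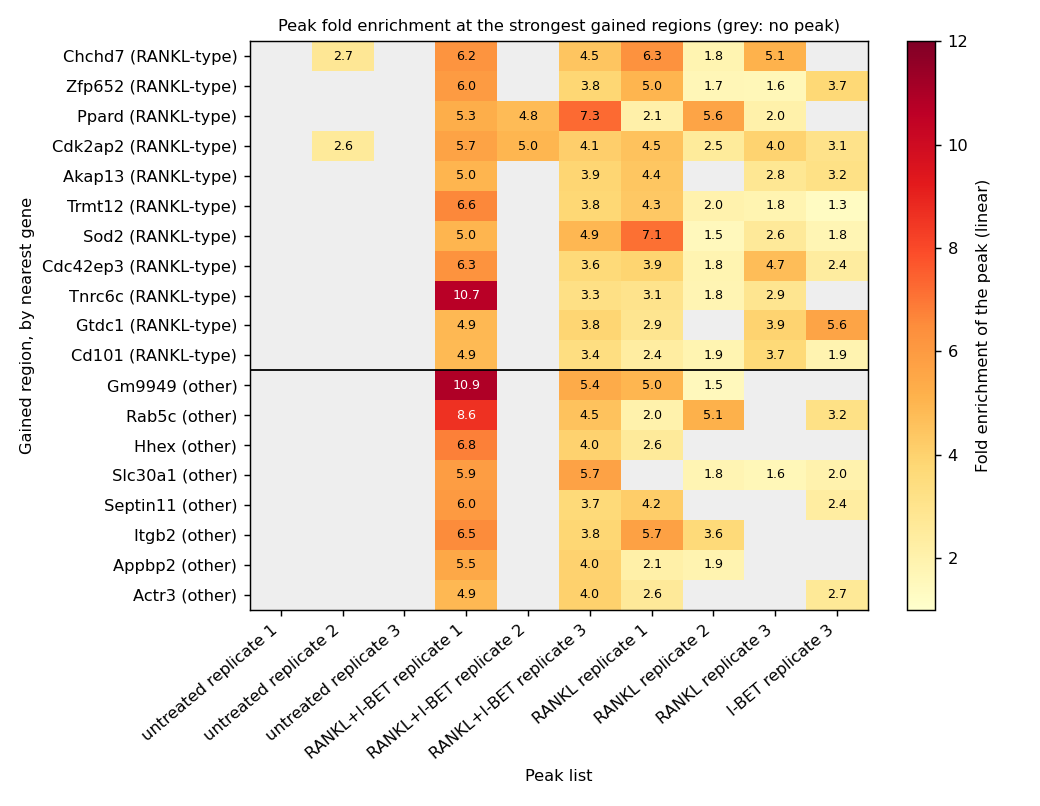
Fold enrichment (linear, colour and number) of the peak in each of 10 lists at 11 of the 12 strongest RANKL-type and the 8 strongest other gained regions, named by the nearest gene, with grey where a list has no peak. RANKL+I-BET replicate 2 has a peak only at Ppard and Cdk2ap2, and the only untreated peaks are those of replicate 2 at Chchd7 and Cdk2ap2 (2.73 and 2.56).

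The 27 regions gained in all 3 replicates were ranked by the weakest of 3 peaks, the short replicate 2 included, and Ppard came second. The first lay inside App, the amyloid precursor gene (chr16:84967536-84967906), with folds of 7.37, 4.69 and 2.70 in RANKL+I-BET replicates 1, 2 and 3. RANKL replicate 1 had no peak there, and RANKL replicates 2 and 3 and the I-BET list had 1.86, 2.25 and 2.99. A region 43984 bp from Gsap, which encodes a regulator of the protease that processes App, had 4.10, 4.00 and 4.39, and 7.12 in RANKL replicate 1 alone of the RANKL lists. Med21, a Mediator subunit, lay 24016 bp from a region with 4.68, 5.54 and 2.74 and RANKL folds of 2.91, 2.52 and 2.03. In Ptk2b, the podosome kinase PYK2, a region gained in all 3 replicates (chr14:66213926-66214234) had 3.45, 4.09 and 2.95. The I-BET list had 6.26 there, RANKL replicates 2 and 3 had 1.76 and 3.78, and RANKL replicate 1 had no peak. Another region inside the same gene (chr14:66234786-66235065) was among the 10 strongest lost regions.

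The 10 strongest lost regions were 37 to 281 bp wide. Abhd5, a lipase cofactor, lay 171 bp from a region with 4.37, 2.59 and 2.88 in the 3 untreated lists, the only one of the 10 that untreated replicate 2 also held. Colec12, a scavenger receptor, had 4.59 and 2.87, and Ppwd1, a splicing-associated isomerase, had 3.63 and 2.58 over a region of 37 bp.

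At the level of genes, a gene-end peak was present in both RANKL+I-BET replicates 1 and 3 and in neither untreated one for 160 of the 9439 protein-coding genes with such a peak in any of the 4 lists (1.7%). The reverse held for 14 genes (0.148%), among them Cdc25c, a mitotic phosphatase, and Smpd3, a sphingomyelinase. Of the 160, RANKL replicates 1 and 3 both had a gene-end peak for 114 (71.3%) and the I-BET list for 55 (34.4%). Of the 14 genes with the reverse pattern, both RANKL lists had one for 9 (64.3%) and the I-BET list for 6 (42.9%). Over all 21887 protein-coding genes, with or without a peak, the shares were 39.7% and 34.8%. Only 9439 of these genes had a gene-end peak in any of the 4 lists, so these shares are not a like reference for the 160 or the 14. Genes with a gene-end peak numbered 9116 and 8034 in RANKL+I-BET replicates 1 and 3 and 7100 and 8242 in untreated replicates 1 and 3, so the groups overlap (8575 ± 765 against 7671 ± 808, SD, n = 2 each; exact permutation p = 0.667). At 1 covered length, 484 genes had the loss pattern. Here too leaving a list out can only add genes: without untreated replicate 1, untreated replicate 3 or RANKL+I-BET replicate 3 there were 349, 1459 or 596 genes with the gain pattern and 99, 128 or 29 with the loss pattern, and leaving out RANKL+I-BET replicate 1 gave 259 with the loss pattern.

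Gained regions were nearest to 586 of the 9312 genes that were nearest to any region (6.29%), and lost regions to 172 (1.85%). A nearest gene had to lie within 100 kb, and 21 gained regions had none. Fndc3b, which encodes a fibronectin domain protein, had 4 gained regions, 3 of them RANKL-type, and was the only gene with 3 or more. Its 4 regions had folds of 2.66, 2.37, 3.50 and 2.84 in RANKL+I-BET replicate 1 and 2.77, 2.22, 2.01 and 4.31 in replicate 3. Another 35 genes had 2 gained regions, among them Il1rn, Ccl4 and Aff1.

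Of the RANKL-induced transcription factors, 4 of the 22 genes nearest to any region were nearest to a gained region and 0 to a lost one. The region near Nfatc1, the master regulator of osteoclast formation, was RANKL-type and lay 2001 bp outside the gene (chr18:80715073-80715613). Its fold was 2.45 and 2.86 in RANKL+I-BET replicates 1 and 3, 3.36, 1.71 and 2.73 in the RANKL lists, and 2.24 in untreated replicate 2, with no I-BET peak. The region inside Creb5, a CREB-family factor (chr6:53448181-53449071), was held by all 3 RANKL+I-BET lists (3.99, 4.48 and 2.21), all 3 RANKL lists (2.79, 1.73 and 2.34) and the I-BET list (3.89), and by no untreated list. Mef2c, a myeloid MADS-box factor, had a RANKL-type region at 3.44 and 2.93 that the I-BET list also held (3.24). Fosb, an AP-1 subunit, had a gained region at 4.66 and 2.82 that RANKL replicates 1 and 2 and the I-BET list lacked.

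Among RANK and NF-kB signalling genes, 5 of 26 were nearest to a gained region and 1 of 26 to a lost one. Traf5, an adaptor of TNF family receptors, had 2: a RANKL-type region at its end (2.71 and 1.59 in RANKL+I-BET replicates 1 and 3, and 3.59 in untreated replicate 2) and one inside the gene (6.76 and 3.23) that no untreated list held. The region 76690 bp from Nfkbiz, a nuclear IkB protein, was held by all 3 RANKL+I-BET lists (2.81, 5.33 and 1.73), all 3 RANKL lists (2.47, 4.51 and 2.02) and the I-BET list (2.50). Tnip1, a partner of the NF-kB inhibitor A20, had folds of 11.6 and 2.38 at a region with no peak in any RANKL, untreated or I-BET list. Rel, an NF-kB subunit, had 3.02 and 2.86 and an I-BET peak of 2.50 but no RANKL peak. Tnfrsf11a, the gene of RANK itself, had a gained region (3.86 and 1.99) that no other list held and, elsewhere in the gene, a lost one.

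Of the osteoclast function genes, 3 of 22 were nearest to a gained region and 1 of 22 to a lost one. Snx10, a sorting nexin needed for the resorbing membrane, had a RANKL-type region at 2.12 and 3.82, with 2.72 and 2.49 in RANKL replicates 1 and 3. Ostm1, a partner of the lysosomal chloride transporter, gained a gene-end peak (3.99 and 2.82) that RANKL replicates 1 and 2 (3.36 and 2.14) and the I-BET list (2.70) also held. Dcstamp, a fusion protein, lay 179 bp from a region at 3.05 and 2.01 whose RANKL peaks were in replicates 2 and 3 (6.71 and 2.04), and the I-BET list had 2.03 there. The lost region lay inside Ctsk, the collagen-degrading cathepsin K, and was 76 bp wide.

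The inflammatory mediators had 4 of 15 genes nearest to a gained region and 0 to a lost one. Both gained regions of Il1rn, the interleukin-1 receptor antagonist, were RANKL-type and neither had an I-BET peak. The first (chr2:24341260-24342075) had folds of 3.87 and 2.05 in RANKL+I-BET replicates 1 and 3, 5.61, 3.20 and 2.34 in the RANKL lists and 2.20 in untreated replicate 2. The second (chr2:24345395-24346571) had 3.57 and 1.95, and 6.23, 1.62 and 2.18 with RANKL. Ccl4, a chemokine, had 2 regions, 1 of them RANKL-type (2.13 and 2.24, with 6.09, 1.62 and 1.85 in the RANKL lists and 2.39 in the I-BET list). Ptgs2, the inducible cyclooxygenase, gained a peak over its start (chr1:150099714-150100242; 3.68 and 1.88) that was absent from RANKL replicates 1 and 3 and from the I-BET list. Plaur, the urokinase receptor, was the other gene of this list to gain a gene-end peak. Ccl2, a chemokine, lay 12006 bp from a region held by all 3 RANKL+I-BET lists (2.76, 4.23 and 5.08). Untreated replicate 2 (2.13) and the I-BET list (2.97) held it as well.

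Of the interferon response genes, 1 of 14 was nearest to a gained region. This was Isg20, an RNA exonuclease, whose RANKL-type region at the gene start (chr7:78913851-78914124) had folds of 2.19 and 3.71 in RANKL+I-BET replicates 1 and 3 and 6.39, 1.98 and 2.66 in the RANKL lists, and no peak in any untreated or I-BET list. Of the 24 interferon genes found, 14 and 12 had a gene-end peak in RANKL+I-BET replicates 1 and 3, and 7 and 14 in untreated replicates 1 and 3. The groups thus overlap, with untreated replicate 1 lowest and untreated replicate 3 equal to RANKL+I-BET replicate 1.

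The macrophage genes had 5 of 26 members nearest to a gained region and 1 of 26, Fcgr2b, to a lost one. Bcl6, a repressor that restrains osteoclast formation, had a RANKL-type region at 7.04 and 2.04. Lyz2, lysozyme of myeloid cells, had one at 3.19 and 2.45 that the I-BET list also held (2.86). Rbpj, the transcription factor of Notch signalling, had 2 regions, 1 of them RANKL-type, and Runx1 and the Fc receptor gene Fcgr3 had 1 each that was not. The I-BET list held both Rbpj regions (2.67 and 3.96) and that of Runx1 (2.31), but not those of Fcgr3 and Bcl6. Of the BET and elongation genes 2 of 18 were nearest to a gained region: Hexim2, an inhibitor of the elongation kinase P-TEFb, with a RANKL-type region (2.63 and 2.12), and Aff1, an elongation scaffold, with 2 that were not RANKL-type.

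The cell cycle list had 2 of 22, Ccnd3, a D-type cyclin (7.66 and 2.77, RANKL-type), and Cdk6, its kinase partner, which had a RANKL-type region (2.33 and 2.10) and a lost region as well. At the gained regions the I-BET list had a peak for Cdk6 (2.78) and none for Ccnd3. Of the histone acetylation genes 1 of 19 was near a gained region, Kat7, an acetyl transferase (3.27 and 4.57, and 2.08 with I-BET), and 1, Ep300, near a lost one. The MYC and ribosome biogenesis list had 0 of 22 and the housekeeping list 0 of 18, in both directions. With 14 to 26 genes a list, each count rests on 0 to 5 genes, and no test was made of any list.

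**Figure D4:**
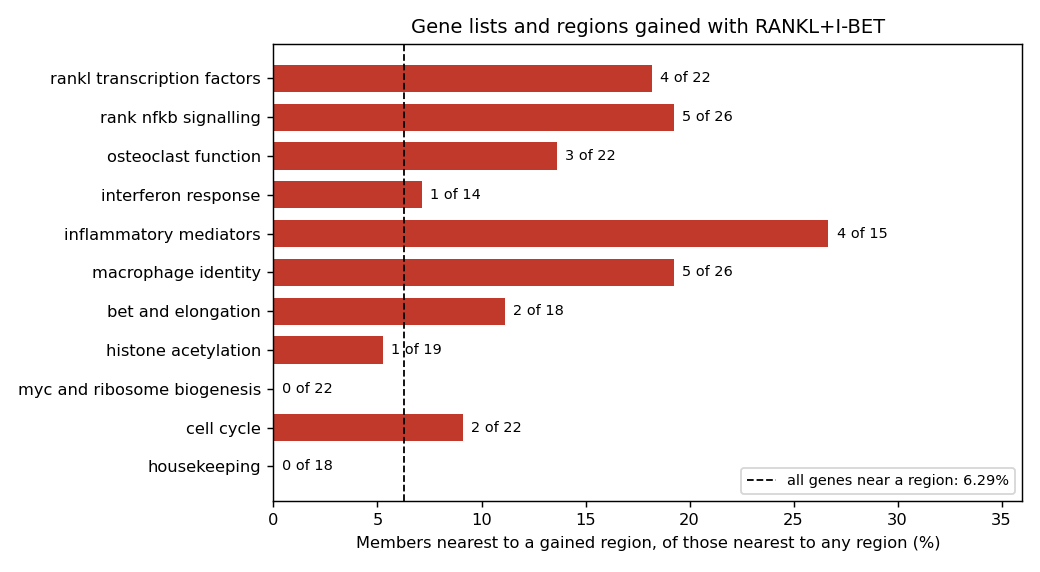
Percentage of each list's genes nearest to any region that were nearest to a gained region, as bars from 0 with the count beside each, and a dashed line at the share of all genes (6.29%). Inflammatory mediators (4 of 15), RANK and NF-kB signalling (5 of 26) and macrophage genes (5 of 26) have the longest bars, and the MYC and ribosome list (0 of 22) and housekeeping genes (0 of 18) have none.

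The length covered by peaks within 25 kb of either gene end was then read per gene. As deposited, both RANKL+I-BET lists of replicates 1 and 3 lay above both untreated ones for 4381 of 13527 genes (32.4%). At 1 covered length this held for 2317 of 13215 genes (17.5%), and the reverse for 1501. Among 39 genes with coverage from a set of 42 always given, 13 had RANKL+I-BET above and 0 untreated above as deposited, and 5 and 4 at 1 covered length. The shares with RANKL+I-BET above, 33.3% and 12.8%, are near or below those of all genes.

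Oscar, a co-stimulatory receptor of osteoclasts, had 1.69, 0 and 2.04 kb under peaks in RANKL+I-BET replicates 1, 2 and 3, against 0.387, 0 and 1.15 kb in the untreated lists. The RANKL lists had 1.72, 11.97 and 1.93 kb. Replicates 1 and 3 did not overlap, and the I-BET list had 1.99 kb. Fosl2, an AP-1 subunit, had 4.15, 1.00 and 5.43 kb in the RANKL+I-BET lists and 1.88, 3.34 and 3.94 kb in the untreated lists. Here too replicates 1 and 3 did not overlap, while replicate 2 had the opposite order. Il1rn had 3.23, 0 and 2.34 kb in the RANKL+I-BET lists, 0.391, 0.707 and 0 kb in the untreated lists, 2.73, 9.56 and 1.94 kb with RANKL, and was listed at 0 with I-BET. At 1 covered length its replicates 1 and 3 overlapped, at 3.23 and 0.190 kb with RANKL+I-BET against 0.391 and 0 kb. Isg20 had 1.49, 0.277 and 1.57 kb against 0.977, 0.970 and 0.727 kb.

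Traf5 had 2.86, 0 and 2.18 kb in the RANKL+I-BET lists and 1.62, 0.147 and 0.905 kb in the untreated lists. Ptgs2 had 0.806, 0 and 0.718 kb in the RANKL+I-BET lists and was listed at 0 in all 3 untreated lists and in RANKL replicates 1 and 3. Ostm1 had 0.600, 0 and 0.532 kb in the RANKL+I-BET lists and was listed at 0 in the 3 untreated lists. Replicates 1 and 3 of these 3 genes did not overlap, as deposited or at 1 covered length.

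Around Nfatc1 peaks of RANKL+I-BET replicates 1, 2 and 3 covered 10.5, 1.41 and 12.5 kb, those of the untreated lists 6.69, 4.53 and 11.9 kb and those of the RANKL lists 11.4, 69.1 and 15.7 kb, so the RANKL+I-BET and untreated values overlapped. Csf1r, which encodes the receptor of macrophage colony-stimulating factor, had 17.4, 4.26 and 17.6 kb against 12.2, 7.74 and 15.0 kb. Its replicates 1 and 3 did not overlap as deposited but did at 1 covered length. Ctsk had 15.2, 2.64 and 12.9 kb in the RANKL+I-BET lists and 15.8, 8.59 and 14.1 kb in the untreated ones, and Acp5, the osteoclast acid phosphatase, 2.66, 0.202 and 0.940 kb against 1.26, 0.719 and 2.20 kb. Cmpk2, an interferon-induced nucleotide kinase, was listed at 0 in all 6 lists and had 0.602, 1.96 and 0.861 kb with RANKL. Myc was covered in RANKL+I-BET replicate 1 alone of the 6 lists (1.39 kb), and the repressor gene Prdm1 in none.

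**Figure D5:**
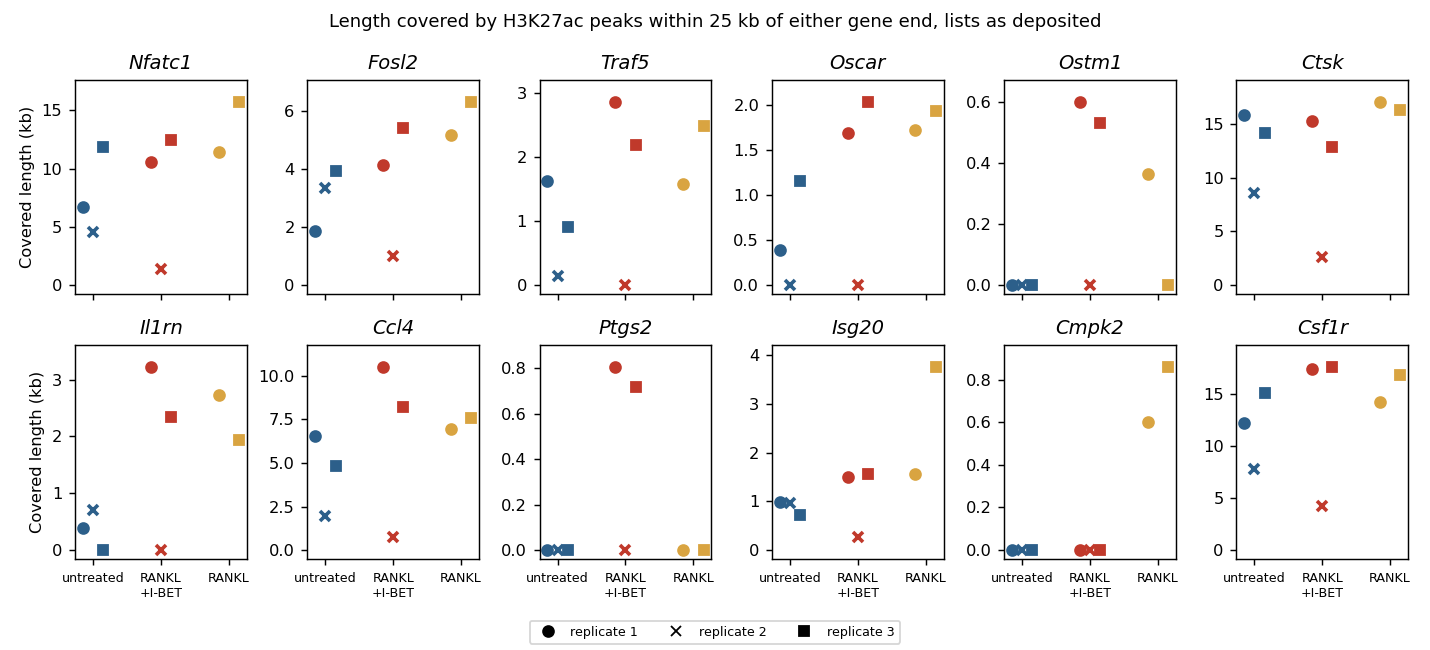
Length covered by peaks (kb) within 25 kb of either end of 12 genes in untreated, RANKL+I-BET and RANKL lists as deposited, one symbol per replicate, each panel with its own linear axis. RANKL replicate 2, the longest list, is left out. As deposited, Il1rn and Ptgs2 lie higher in RANKL+I-BET replicates 1 and 3 than in every untreated list (Il1rn overlaps at 1 covered length), Nfatc1 and Ctsk overlap, and Cmpk2 has coverage in the RANKL lists alone of those plotted (0.602 and 0.861 kb).

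A limma model on log2 of the covered length plus 500 bp, fitted to RANKL+I-BET and untreated replicates 1 and 3 at 1 covered length, called 0 of 10567 genes at an adjusted p under 0.05 (0%). The smallest adjusted p was 0.925, and 393 genes had an unadjusted p under 0.05, 144 of them higher and 249 lower with RANKL+I-BET. The log2 difference of Oscar was 1.82 (SE 0.63; limma adjusted p = 0.925), that of Il1rn was 1.26 (SE 1.00) and that of Fosl2 was 0.69 (SE 0.42). Ctsk had -0.49 (SE 0.23), Aif1, a calcium-binding protein of macrophages, -0.89 (SE 0.44) and Nfatc1 -0.04 (SE 0.46).

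These log2 values moved with the lists and with the length they were reduced to. With the lists as deposited, Oscar had 0.96, Il1rn 2.29, Aif1 0.45, Nfatc1 0.34 and Ctsk -0.09, so Aif1 and Nfatc1 turned sign. Without untreated replicate 1, where the common length was also longer, Oscar had 0.51, Il1rn 2.70, Fosl2 0.24, Aif1 0.69 and Nfatc1 -0.35. Without untreated replicate 3, Il1rn had 0.85, Fosl2 1.14 and Nfatc1 0.27. Nfatc1 had 0.55 without RANKL+I-BET replicate 1 and -0.62 without RANKL+I-BET replicate 3, where Il1rn had 2.48. None of these passed the threshold.

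The median log2 difference was 0.03 over all genes, 0.37 over 14 inflammatory mediators, 0.13 over 21 RANKL transcription factors, 0.01 over 23 RANK and NF-kB genes, -0.14 over 18 BET and elongation genes, -0.25 over 24 osteoclast function genes and -0.27 over 14 interferon genes. Of these genes 9, 11, 12, 5, 8 and 6 in that order of lists had a value above 0, against 5534 of all 10567, and none was called. Markers of other cell types had medians of 0.59 over 4 lymphocyte genes and 0.72 over 2 fibroblast and osteoblast genes, all above 0, and -0.10 over 4 genes of absent tissues, all below 0. Their part in the medians of the other lists was not tested.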

How the data were processed

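H3K27ac immunoprecipitates of RAW264.7 cells were made after fixation in 1% formaldehyde and read single-end at 50 bp, per the labels' protocols. FastQC, Bowtie2 and MACS2, with the builds mm10 and GRCm38, are named without versions in the submitters' processing notes. The calling settings and the use of the input libraries are not given in the sources used here. In the deposited lists the score is 10 times the -log10 q, rounded. Fold enrichment is deposited as a linear ratio over the caller's background, and the deposited p and q values are on a -log10 scale. These values of the authors served to describe, rank and filter peaks inside 1 list at a time. Without counts no counting interval can be given.

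Groups came from the labels. Consensus regions, gene-end peaks and nearest genes were computed in Python 3.11.15 (numpy 2.4.6, pandas 2.3.3, scipy 1.17.1) from peak positions and 21887 protein-coding genes of a RefSeq GRCm38.p6 table, without strands, so that distances were taken to the closer gene end. Of 321 members of 14 gene lists 319 were found, and 17492 genes had a promoter sequence. In the main fit limma 3.58.1 (R 4.3.3, trended prior) used lists reduced to 16.1 Mb, a window of 25 kb, 500 bp as pseudocount and as the lowest mean length kept, and Benjamini-Hochberg adjustment. The common length was longer where untreated replicate 1 was left out. Differences of group means got exact permutation tests, two-sided. The code was tested on simulated lists and values. Named were the 12 strongest RANKL-type, 8 other gained and 10 lost regions, at most 10 regions gained in all 3 replicates, genes with 3 or more gained regions, list members near a gained or lost region or changing a gene-end peak, and 42 genes always given. The text prints a part of these, picked after their values were seen. A few items that the rule names are not reported here. The members and lists were chosen with earlier results of these data known. Alternatives were other list lengths, thresholds, overlaps, consensus rules, windows, pseudocounts, replicate blocks and each list left out.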

Additional observations from a re-analysis of the deposited data

How the results depend on the processing

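Gained, lost and RANKL-type counts (645, 184 and 346) moved by over 1.5 times under most other settings. At 1 covered length lost regions numbered 1038, RANKL-type regions 133 and genes losing a gene-end peak 484, while gained regions (502) stayed within 1.5 times. With peaks of -log10 q of at least 5 only, 2627 consensus regions were left in place of 16703. Of these 703 were gained, 62 lost and 100 RANKL-type, and 432 genes gained and 40 lost a gene-end peak. That cut kept 4951 and 3116 peaks of RANKL+I-BET replicates 1 and 3, and 673 and 2786 of untreated replicates 1 and 3. Requiring all 3 replicates left 27, 11 and 15 regions and 8 and 3 genes, with a peak number difference of -879. Coverage of at least 50% of a region gave 1100 gained and 558 RANKL-type regions. Regions in 3 or more of the 6 lists gave 162, 20 and 110, and regions in 2 or more of 10 lists gave 94 lost. Chosen after seeing the data were pair 1 alone (3495 gained, 551 lost, 2644 RANKL-type), pair 3 alone (1595, 1332 and 944), pair 3 at 1 covered length (2729, 3102 and 733) and 1 covered length with regions from the 4 lists (1055 lost, 133 RANKL-type). The cause of these shifts was not tested.

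Leaving out each of the 4 lists in turn gave 668 to 2645 gained, 225 to 719 lost and 355 to 2179 RANKL-type regions, 211 to 1459 genes gaining and 29 to 259 losing a gene-end peak, and peak number differences of -1407.5 to 2622.5, which was -736 without untreated replicate 3. The region and gene counts can only rise when a list is left out. Of the 20 strongest gained regions, 15 were still gained with regions from 10 lists, 3 with regions from 3 of 6 lists and 1 with all 3 replicates.

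limma called 0 genes under each setting run. The log2 difference of Fosl2 was -0.43 with all 6 lists, with and without the replicate block. That of Tnf was 0.27 as deposited against -0.41 at 1 covered length, and ran from -0.64 to 0.38 with each list left out. That of Aif1 was 0.45 as deposited against -0.89 and ran from -1.38 to 0.69, and that of Actb, 0.29, ran from -0.30 to 0.33. Leaving out untreated replicate 1 gave the 0.38, the 0.69 and the -0.30, but there the lists were also reduced to a longer common length. At 16.1 Mb, Tnf had 12.5 and 14.4 kb in RANKL+I-BET replicates 1 and 3 and 15.3 kb in untreated replicate 3. Aif1 had 3.1 and 6.6 against 6.8 kb, and Actb 8.3 and 8.8 against 7.1 kb. At that length the order against untreated replicate 3 kept the sign of the main fit for all 3 genes. The part of the length in the turned signs was not tested. Same-numbered lists had deviations that correlated at 0.0425, 0.248 and 0.111 over 4204 genes, so the numbers are not taken as pairs. With the replicate block limma called 0 genes (smallest adjusted p 0.947; 430 genes at an unadjusted p under 0.05), and the peak number difference was -879 (exact permutation p = 0.75) and that of covered length 1.20 Mb (exact p = 0.75) over 3 pairs. Each RANKL+I-BET list correlated best with the untreated list of its own number, a hint from the data and not from the design.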
